A study of Drosophila melanogaster with 6 samples.

Results

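RNA levels of the enzymes of glycolysis were followed in adult Drosophila heads with and without pan-neuronal overexpression of LARK, an RNA-binding protein. The genes considered were Hex-A, Pgi, Pfk, Ald1, Tpi, Gapdh1, Gapdh2, Pgk, Eno and PyK, and their probe sets were found by the gene symbol in the array annotation. Of these 10 genes, 7 had a probe set annotated to them alone, with 1 probe set each, out of 10844 genes that had such a probe set on the array. For Tpi the only match was a probe set annotated to a second gene as well (CG1607), so no value is given for it, and Gapdh2 and PyK were not analysed here. LARK overexpression flies came from elav-gal4 females mated to uas-lark males, so that males were elav-gal4; uas-lark/+ while females were heterozygous for the driver (elav-gal4/+; uas-lark/+). Control flies came from the same driver females mated to w1118 males, and therefore carried elav-gal4 but no uas-lark. Both groups were mixed-sex adults of unstated age, reared at 25°C in 12 h of light and 12 h of darkness, frozen at ZT6, 6 h after lights-on. The driver elav-gal4 is active in neurons, whereas head RNA also comes from glia, eye, muscle and fat body. In such a mixed sample, fewer cells of a type and less RNA per cell cannot be told apart.

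Glycolysis splits a glucose molecule into pyruvate in the cytosol and yields ATP and NADH without oxygen. In its upper part ATP is spent to phosphorylate and cleave the sugar (Hex-A, Pgi, Pfk, Ald1), and in its lower part the triose phosphates are oxidized and ATP is recovered (Gapdh1, Pgk, phosphoglycerate mutase, Eno and pyruvate kinase). In the insect head, glia take up the blood sugar trehalose and break it down by glycolysis, and their products feed the mitochondria of neurons. Photoreceptors and muscle are also heavy users of sugar. Hex-A and Ald1 are on the study's list of RNAs coprecipitated with LARK from pharate adult brains, in both of its precipitations.

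There were 3 arrays per genotype, which by the series' description repeat the labeling and hybridization of 1 RNA sample each. Some genes differed widely between the LARK overexpression arrays. The flight muscle gene Act88F read 91.0 on array 1 and 2989 and 3294 on arrays 2 and 3. How far repeats of 1 RNA sample would differ is not known, and whether these arrays share 1 was not tested. The tests below weigh a difference against the spread between arrays, which cannot be read as the spread between flies. With 3 arrays a genotype the precision is limited. Signals are linear MAS5 intensities. A replicate number stands for a shared hybridization day and scaling, the trimmed mean signal being 150 for replicate 1, 85 for replicate 2 and 100 for replicate 3. LARK overexpression array 1 stood apart from arrays 2 and 3 of its genotype, with correlations of 0.877 and 0.892 against 0.946 between those 2 arrays. Its correlation was highest with control array 1, at 0.912, and it was 0.888 with control array 2 and 0.879 with control array 3. The scanner header of this array describes RNA of the flies without naming the head, which the headers of the other 5 arrays do name. Results that rest on it are given below also for days 2 and 3 alone. That setting keeps the LARK overexpression arrays least correlated with the controls, and whether it is a cleaner subset was not tested. The lark probe set read 265, 143 and 166 on LARK overexpression arrays 1, 2 and 3 and 224, 156.4 and 192 on control arrays 1, 2 and 3, a difference of -0.03 ± 0.45 log2 units (SE; limma adjusted p = 0.999). The files do not say whether its probes lie within the transgene, so this value does not check the genotype labels. Head photoreceptor genes were well measured in both groups, with Arr2, an arrestin of the eye, at 5805 to 10285 with LARK overexpression and 8071 to 9466 in the control.

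None of the 7 measured glycolysis genes passed the test for a change with LARK overexpression, and their fitted ratios to the control were 0.907 to 1.13. All 7 were above a signal of 40 on every one of the 6 arrays, so that all entered the test, a linear model in limma on log2 signals with Benjamini-Hochberg adjustment over 9432 probe sets that exceeded 40 on at least 1 array. At an adjusted p under 0.05, 0 of 7 passed, against 1.55% of all probe sets tested. An unadjusted p under 0.05 by limma was seen for 0 of 7, against 10.8% of all. With a replicate block it was also 0 of 7, against 20.2% of all. With 7 genes, 0 cannot be told from such shares. No member differed by 2-fold, which 12.8% of all probe sets did. The log2 differences, LARK overexpression minus control, ran from -0.14 for Eno to 0.18 for Pfk, with a median of 0.04 beside -0.07 over all probe sets tested. Centering each array on its median moved these medians to 0.16 and 0.06. In both scalings Pfk, Ald1, Gapdh1 and Pgk lay above 0 and Eno below 0, while Hex-A and Pgi lay below 0 as deposited and above 0 after centering.

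**Figure D1:**
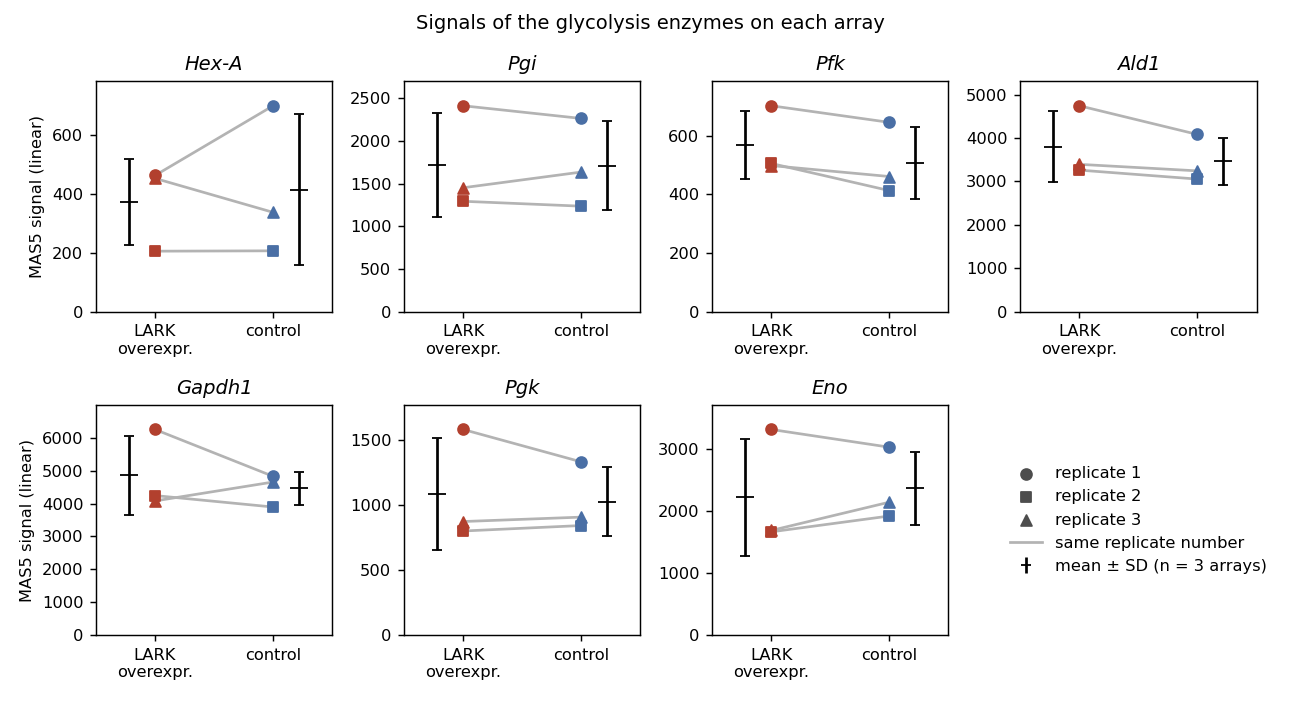
MAS5 signal (linear scale from 0) of the 7 measured glycolysis genes on each array, LARK overexpression left and control right, with symbols for replicate numbers, gray lines joining arrays of the same number, and black bars for the mean ± SD of 3 arrays. The genotypes overlap for every gene, and replicate 1, scaled highest, is the top value in both genotypes for every gene.

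The entry step is carried out by hexokinase, which phosphorylates glucose, and Hex-A encodes such an enzyme. Hex-A read 464, 206 and 454 on LARK overexpression arrays 1, 2 and 3 and 701, 207 and 338 on control arrays 1, 2 and 3. Replicate 2 was the low array in both genotypes, and the ranges overlapped. As deposited, control array 1, in the replicate scaled highest, lay above every LARK overexpression array. On centered arrays its log2 level was 2.59, against 2.65 on LARK overexpression array 3. The means were 374 ± 146 with LARK overexpression and 415 ± 256 in the control (SD, n = 3 arrays each), a difference of -0.06 ± 0.53 log2 units (SE; limma adjusted p = 0.999). Its ratio between genotypes was 0.661 on day 1, 0.994 on day 2 and 1.34 on day 3, so the direction was not shared by the days. Hex-A was also the most variable member within genotypes, with a residual SD of 0.46 log2 units on centered arrays against 0.09 to 0.23 for the other 6 and a median of 0.33 over all probe sets tested.

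Pgi encodes the isomerase that turns glucose 6-phosphate into fructose 6-phosphate. Its signals were 2411, 1293 and 1451 with LARK overexpression and 2262, 1235 and 1635 in the control. Its mean signal reached 1718 ± 605 with LARK overexpression, against 1711 ± 518 in control heads (SD, n = 3 arrays each), and the fitted ratio was 0.997 with a 95% interval of 0.504 to 1.97. On centered arrays the residual SD of Pgi was 0.09, lower than in all but 1.71% of probe sets, and the log2 difference was 0.12 with a 95% interval of -0.29 to 0.53.

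Phosphofructokinase, the product of Pfk, commits the sugar to glycolysis and is the main point at which the pathway is controlled. Pfk read 702, 505 and 498 with LARK overexpression and 645, 413 and 461 in the control. It was higher with LARK overexpression on 3 of 3 days, by log2 ratios of 0.12, 0.29 and 0.11, although the ranges of the genotypes overlapped. The log2 difference was 0.18 (SE 0.44; limma adjusted p = 0.999), the largest difference among the members but not past the test. After centering, the centered log2 levels were 2.73, 3.04 and 2.78 with LARK overexpression and 2.47, 2.64 and 2.55 in the control. These no longer overlapped, and the log2 difference was 0.30 (SE 0.18, 95% interval -0.14 to 0.74, limma adjusted p = 0.419).

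Ald1 encodes aldolase, which cleaves fructose 1,6-bisphosphate into trioses. Its signals were 4741, 3260 and 3393 with LARK overexpression and 4080, 3053 and 3242 in the control. Each LARK overexpression array lay above the control array of its day, by log2 ratios of 0.22, 0.09 and 0.07, while the ranges overlapped. The means were 3798 ± 820 with LARK overexpression and 3458 ± 547 in the control (SD, n = 3 arrays each), a difference of 0.13 ± 0.44 log2 units (SE; limma adjusted p = 0.999).

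In the lower part, glyceraldehyde 3-phosphate dehydrogenase oxidizes the triose and makes NADH. Gapdh1, which encodes this enzyme, read 6246, 4242 and 4078 with LARK overexpression and 4824, 3894 and 4653 in the control. The groups overlapped, and the highest value was the 6246 of LARK overexpression array 1, in the replicate scaled highest. On centered arrays the log2 level of that array was 5.89. LARK overexpression array 2 then stood at 6.11 and control arrays 2 and 3 at 5.88. The means were 4855 ± 1207 with LARK overexpression and 4457 ± 495 in the control (SD, n = 3 arrays each), a difference of 0.10 ± 0.44 log2 units (SE; limma adjusted p = 0.999), and without day 1 the difference was -0.03. Whether these probes also bind RNA of the closely related gene Gapdh2 is not given in the files.

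Phosphoglycerate kinase recovers ATP in the next step. Pgk read 1582, 802 and 875 with LARK overexpression and 1333, 844 and 909 in the control, a difference of 0.04 ± 0.46 log2 units (SE; limma adjusted p = 0.999). Day 1 alone gave a ratio above 1, at 1.19, against 0.9501 and 0.963 on days 2 and 3. Enolase makes phosphoenolpyruvate, the substrate of pyruvate kinase. Eno read 3314, 1666 and 1688 with LARK overexpression and 3028, 1921 and 2144 in the control. Its log2 difference of -0.14 (SE 0.47; limma adjusted p = 0.999) combined a ratio of 1.09 on day 1 with ratios of 0.867 and 0.787 on days 2 and 3.

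**Figure D2:**
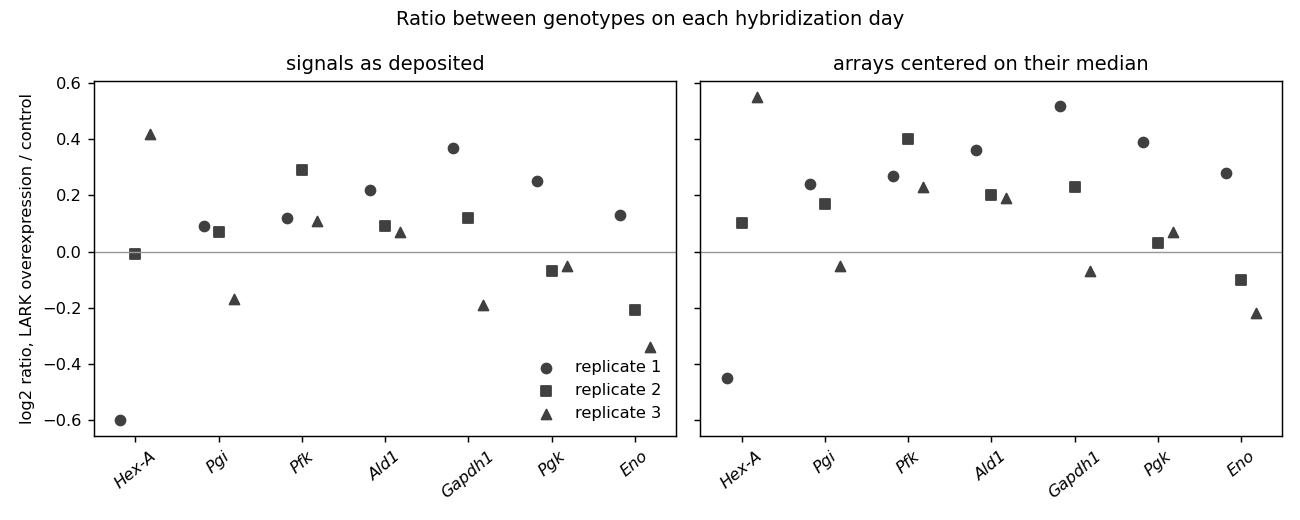
Log2 ratio of LARK overexpression over control for each glycolysis gene on each hybridization day (symbols for replicate numbers 1, 2 and 3), with signals as deposited on the left and arrays centered on their median on the right. Pfk and Ald1 lie above 0 on all 3 days in both panels, Pgk does so after centering, and Hex-A spans -0.60 to 0.42 as deposited.

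Day by day the members divided as follows, with signals as deposited. On day 1, 6 of 7 members were higher with LARK overexpression, all but Hex-A, with a median log2 ratio of 0.13 beside -0.03 for all probe sets tested. On day 2, 4 were higher and 3 lower (median 0.07 beside -0.11), and on day 3, 3 were higher and 4 lower (median -0.05 beside -0.10). Centering the arrays gave 6 higher and 1 lower on days 1 and 2, and 4 higher and 3 lower on day 3. Pfk and Ald1 were higher on 3 of 3 days, that is 2 of 7, against 17.6% of all probe sets. No member was lower on 3 of 3 days, against 26.9%. On centered arrays Pgk joined them, which made 3 of 7 against 26.6% for higher and 0 of 7 against 19.8% for lower. Genotypes without overlap were seen for 0 of 7 members as deposited, against 12.5% of all probe sets, and for 1 of 7 after centering (Pfk), against 26.1%. On days 2 and 3 alone, which leaves out LARK overexpression array 1 and its control, the log2 difference was 0.21 for Hex-A, 0.20 for Pfk, 0.08 for Ald1, -0.03 for Gapdh1, -0.05 for Pgi, -0.06 for Pgk and -0.28 for Eno, with a median of -0.03. No member passed limma's test in that setting either.

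The precision of these values depended on the scaling of the days. With signals as deposited, the 95% interval of the fold difference reached from 0.588 to 2.17 for Pfk and from 0.440 to 2.09 for Hex-A, so that changes of about 2-fold could not be told from none. On centered arrays the standard errors were 0.17 to 0.22 for 6 members and 0.33 for Hex-A, and the intervals of those 6 stayed within -0.48 and 0.75 on the log2 scale. With a replicate block the standard errors were 0.17 to 0.26 and the adjusted p from limma ran from 0.619 to 0.991. The residual SD on centered arrays was at percentile 1.71 for Pgi, 5.65 for Pgk, 6.12 for Pfk, 11.6 for Eno, 12.5 for Ald1, 29.2 for Gapdh1 and 70.5 for Hex-A among the probe sets tested.

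**Figure D3:**
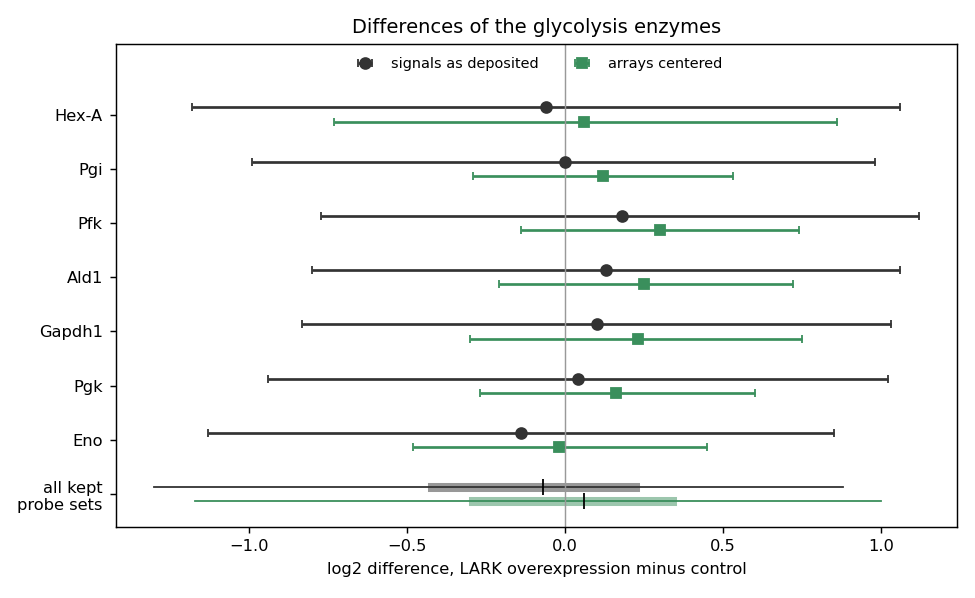
Log2 difference (LARK overexpression minus control) of each glycolysis gene with its 95% interval from limma, for signals as deposited (black circles) and arrays centered on their median (green squares), n = 3 arrays per genotype. The bottom lines show the 5th to 95th percentile of all 9432 probe sets tested, with the thick part from the 25th to the 75th and a tick at the median, and every member's interval includes 0.

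The array carries control probe sets for the 5′, middle and 3′ parts of a GAPDH transcript, which measure the same enzyme's RNA along its length. The 3′ set read 6340, 3332 and 3319 with LARK overexpression and 5178, 4010 and 3684 in the control, which differ by -0.04 in log2 units. The middle set had a log2 difference of -0.30, at 3947, 1884 and 2063 with LARK overexpression and 3675, 2506 and 3125 in the control. The 5′ set read 1253, 723 and 1026 with LARK overexpression and 1839, 992 and 1247 in the control. It was lower with LARK overexpression on 3 of 3 days, with a log2 difference of -0.43. These sets entered no test. The genotypes lay farther apart toward the 5′ end of the control transcript, and whether it is that of Gapdh1 or Gapdh2 is not given.

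The 3′ to 5′ signal ratio, a sign of RNA quality, was 3.23 to 5.06 with LARK overexpression and 2.82 to 4.04 in the control for GAPDH. For eIF-4a it was 6.05 to 6.52 with LARK overexpression and 2.81 to 3.02 in the control, and for actin it was 5.51 to 6.21 with LARK overexpression and 1.89 to 3.41 in the control. The eIF-4a and actin ratios did not overlap between genotypes. Those of GAPDH did overlap, but on each day the GAPDH ratio was higher with LARK overexpression. It was 5.06 against 2.82 on day 1, 4.61 against 4.04 on day 2 and 3.23 against 2.95 on day 3. Where along their transcripts the probes of the 7 members lie is not given in the files, so the part of RNA quality in their values was not tested.

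**Figure D4:**
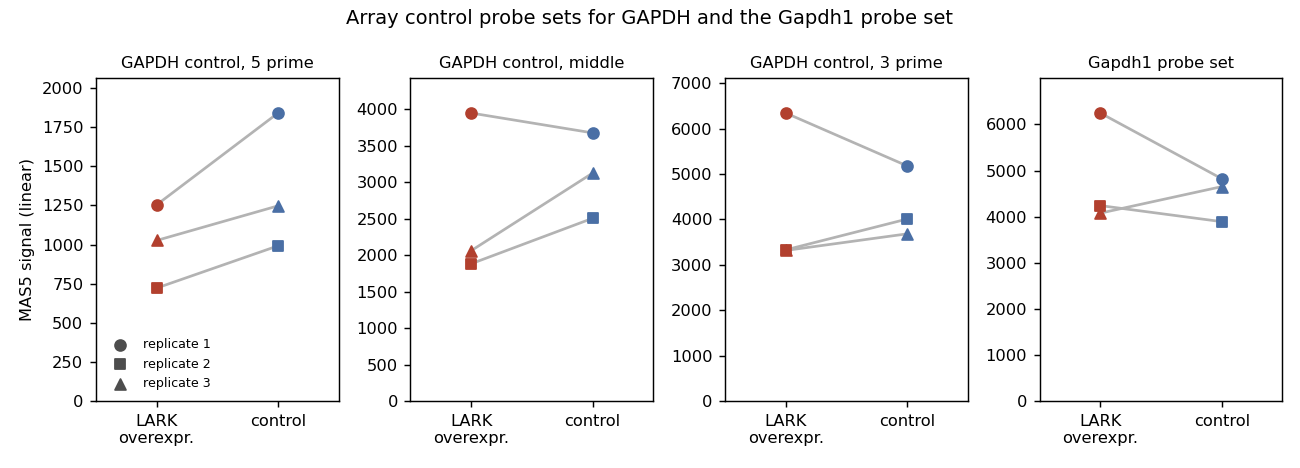
MAS5 signal (linear scale from 0) of the array's control probe sets for the 5′, middle and 3′ parts of GAPDH and of the Gapdh1 probe set, LARK overexpression left and control right, with symbols for replicate numbers and gray lines joining arrays of the same day. On all 3 days the 5′ set reads lower with LARK overexpression than in the control, while the direction differs between days for the other sets.

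Phosphoglycerate mutase, the step between Pgk and Eno, is encoded by Pglym78. It read 3462, 1895 and 1854 with LARK overexpression and 2346, 1545 and 1603 in the control, higher on 3 of 3 days with, a difference of 0.36 ± 0.46 log2 units (SE; limma adjusted p = 0.999). Pfrx, whose product sets the level of the Pfk activator fructose 2,6-bisphosphate, had a log2 difference of -0.17 (SE 0.45). Together with other isozymes, 14 genes of this group were on the array, 6 of them were tested and 0 passed. The remaining 8 read 0.3 to 22.8 on all arrays and never exceeded 40: Pglym87, Hex-t2, CG9961, CG7069, CG7362, CG11249, CG12229 and CG9010. A change in these could not be measured.

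Across the pathways that border glycolysis, 52 of 67 listed genes were on the array by a single symbol and 44 of them were tested with 47 probe sets. By limma 0 rose and 0 fell, and 1 probe set had an unadjusted p under 0.05, against 10.8% of all probe sets tested. A replicate block called 0 of the 47, but it called 0 of all 9432 probe sets, so that count says nothing about these genes. In that fit 9 of the 47 had an unadjusted p under 0.05 by limma, against 20.2% of all. Letting the prior variance follow the signal, robustly, on top of the block called 4 of the 47, against 6.05% of all. The median log2 difference was -0.29 for 7 genes of sugar supply and storage, 0.10 for 11 genes of pyruvate, glycerol phosphate and gluconeogenesis, -0.03 for 5 genes of the pentose phosphate pathway, 0.00 for 9 genes of the citrate cycle and -0.16 for 6 transcription factors known for sugar metabolism. The corresponding median over all probe sets tested was -0.07.

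Among sugar supply genes, Tps1, which makes trehalose, had a log2 difference of -0.29 (SE 0.47) and UGP, which makes UDP-glucose, -0.36 (SE 0.52). The trehalose transporter gene Tret1-1, singled out after its values were seen, had the largest difference of the bordering genes. Its first probe set read 85.0, 47.3 and 55.2 with LARK overexpression and 255.2, 112 and 214 in the control. Every LARK overexpression array lay below every control array, with a log2 difference of -1.60 (SE 0.48; limma adjusted p = 0.122). The unadjusted p from limma was 0.00412. Genotypes did not overlap for 12.5% of all probe sets tested. The second Tret1-1 probe set read 2016, 863 and 989 with LARK overexpression and 2873, 1945 and 2066 in the control. Its difference was -0.92 ± 0.47 log2 units (SE, limma adjusted p = 0.550), and the genotypes overlapped. After centering, its log2 levels were 4.26, 3.81 and 3.77 with LARK overexpression and 4.62, 4.87 and 4.71 in the control. These did not overlap, as for 26.1% of all probe sets on centered arrays. Both Tret1-1 sets were lower with LARK overexpression on 3 of 3 days as deposited, against 26.9% of all probe sets. The replicate block gave limma adjusted p-values of 0.0917 for the first set and 0.147 for the second, and the block with the robust signal-dependent prior gave 0.00690 and 0.0250, so that both sets were called lower in that fit. On centered arrays the first set alone was called lower, with a limma adjusted p of 0.0417, in a fit that called 1.36% of all probe sets.

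Among genes of gluconeogenesis and related steps, Pepck, which makes phosphoenolpyruvate from oxaloacetate, read 2438, 2950 and 3705 with LARK overexpression and 3084, 1492 and 2151 in the control, a difference of 0.48 ± 0.46 log2 units (SE; limma adjusted p = 0.993) that was negative on day 1. The pyruvate carboxylase gene CG1516, whose product makes that oxaloacetate, had a log2 difference of 0.10 (SE 0.45), fbp, which reverses the Pfk step, 0.15 (SE 0.50), and Gpdh, which diverts trioses to glycerol phosphate, 0.10 (SE 0.48). The lactate dehydrogenase gene ImpL3 was not analysed here. In the pentose phosphate pathway, the transketolase gene CG8036 had a log2 difference of -0.15 (SE 0.47) and the transaldolase gene tal -0.09 (SE 0.48). In the citrate cycle and the malate shuttle, the aconitase gene Acon had 0.00 (SE 0.47) and the cytosolic malate dehydrogenase gene CG5362 -0.14 (SE 0.47). Of the transcription factors, ERR, which drives glycolytic genes in Drosophila larvae, read 113, 50.9 and 54.7 with LARK overexpression and 131, 63.6 and 71.0 in the control, a difference of -0.30 ± 0.49 log2 units (SE; limma adjusted p = 0.999). The sugar sensor gene Mondo and its partner bigmax had log2 differences of 0.40 (SE 0.49) and -0.02 (SE 0.47).

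**Figure D5:**
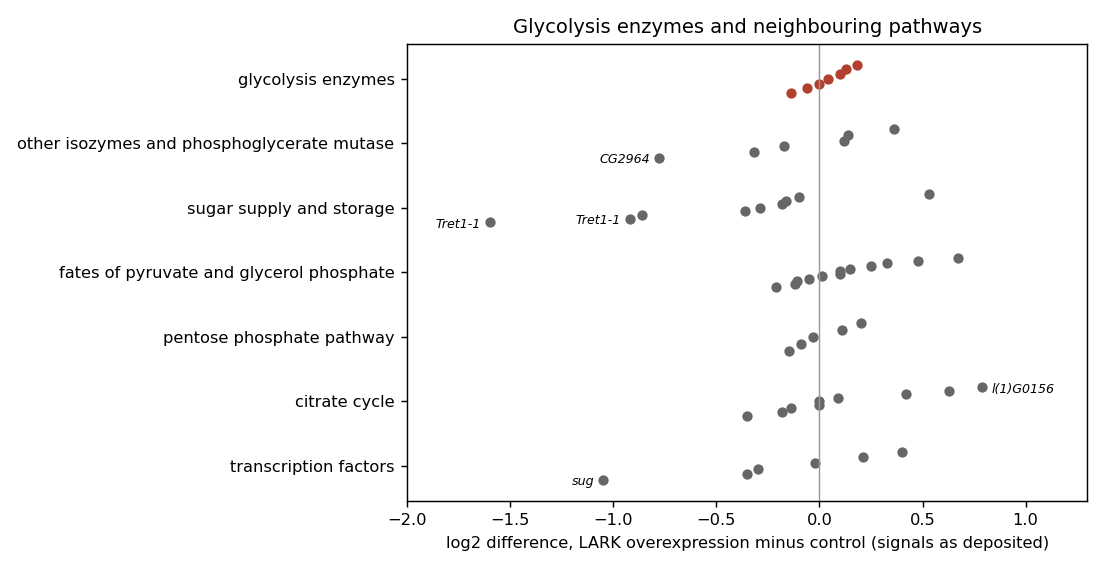
Log2 differences (LARK overexpression minus control, signals as deposited) of the glycolysis enzymes (red, 7 probe sets) and of tested probe sets of bordering pathways (gray, 47), 1 point per probe set, with some of the largest differences named. The glycolysis enzymes lie between -0.14 and 0.18, and the points farthest from 0 are those of Tret1-1 and sug, both lower with LARK overexpression.

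Markers of tissues that could carry these RNAs differed between the arrays. Of 11 muscle genes on the array, 1 rose by limma (fln) and 0 fell, and their summed signal was 18959 to 19956 with LARK overexpression and 13340 to 18925 in the control. By log2 difference 7 of the 11 lay above 0 and 4 below, among the latter Act79B at -0.46 and TpnC41C at -0.30. The flight muscle genes fln, TpnC4 and Act88F were high on LARK overexpression arrays 2 and 3 only, where Act88F read 2989 and 3294, against 91.0 on array 1 and 83.6 to 149 in the control. Of 6 gut genes 5 rose and 0 fell, with sums of 568 to 2261 with LARK overexpression and 207 to 361 in the control. The 5 that rose were likewise highest on LARK overexpression arrays 2 and 3, where the digestive protease gene alphaTry read 476.5 and 429, against 13.4 on array 1 and 6.7 to 11.9 in the control. Of 9 neuron genes 0 rose and 3 fell (nSyb, VGlut and Gad1), and the sums were 706 to 1410 with LARK overexpression and 1494 to 2578 in the control. By log2 difference 7 of the 9 lay below 0, with elav at only -0.13, and 2 lay above 0. These 2 were ChAT, at 0.37 and 0.21 in its 2 probe sets, and para, at 0.37. Of 6 fat body genes 1 rose (Fbp1) and 0 fell, with sums of 25797 to 45583 with LARK overexpression and 34522 to 38248 in the control. Fbp1 and Fbp2 were also highest on LARK overexpression arrays 2 and 3. Fbp1 read 545.5 and 653 there against 81.0 on array 1, and Fbp2 read 625.6 and 686.5 against 10.6. None of 7 glia genes and none of 5 photoreceptor genes passed in either direction. The glia sums were 2139 to 4700 with LARK overexpression and 2006 to 4807 in the control, and the photoreceptor sums 14170 to 28874 with LARK overexpression and 19739 to 26293 in the control. On centered arrays 3 neuron genes fell (nSyb, Gad1 and cac) and no other marker was called, the smallest limma adjusted p among gut genes being 0.0739. The replicate block called 0 of these marker probe sets and 0 of all probe sets tested. With the robust signal-dependent prior it called 4 neuron genes lower (nSyb, VGlut, Gad1 and Syn) and 2 gut genes higher (Jon25Biii and Amy-d). That fit called 6.05% of all probe sets. The part of these tissues in the values of the glycolysis genes was not tested.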

How the data were processed

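Head RNA was hybridized to Affymetrix DrosGenome1 arrays, 3 per genotype. The authors deposited signal intensity on a linear scale. MAS5 is the tool in the submitters' processing notes, with no version, whereas the study's methods describe GCRMA. Raw images were not used here. Instrument text files, deposited with the arrays per the file headers, gave hybridization days. Of 13966 probe sets besides 44 array controls, 12443 have 1 annotated symbol, 327 several and 1196 none, and genes were named only from the first kind. No genome or probe sequence was used.

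Signals were taken to log2. Probe sets over 40 on any array entered the test (9432). The study's methods also state a cut at 40, but after GCRMA normalization, so on a scale unlike the MAS5 signals used here. limma 3.58.1 (R 4.3.3) compared the genotypes two-sided, with Benjamini-Hochberg adjustment over all tested probe sets, and its script was tested on simulated data. Replicate numbers pair the arrays, because the headers give same-numbered arrays a common hybridization day. On centered arrays, the deviations of same-numbered arrays from the genotype means correlated at 0.0936, 0.172 and 0.0256. Arrays of different numbers gave -0.212 to 0.102, a range that overlaps these values. Alternatives covered scaling, offset, floor, filter, variance prior, block, days and left-out arrays. The text names every member, the genes of each bordering list past the test or otherwise its 2 brightest, and Pglym78, ImpL3, Gpdh, fbp and ERR. Tret1-1, l(1)G0156, SdhB, SdhC, sug and Glut1 were added after their values were seen. CG17654, first listed as an isozyme, is Eno itself and was dropped. The members and lists were chosen with earlier results of these data known.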

Additional observations from a re-analysis of the deposited data

How the results depend on the processing

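No member was called under any alternative, but some of these fits called 0 of all probe sets, so their result for the members was fixed. They were the floor at 40, the replicate block, and the centered arrays without control array 1, 2 or 3. The members' median log2 difference ran from -0.26 to 0.24 with single arrays left out, or 0.07 to 0.23 when these were centered too. The replicate block left every log2 difference as it was and called 0 members. Signs near 0 did turn. Centering gave 0.06 for Hex-A and 0.12 for Pgi, quantile normalization gave -0.03 for Pgk, and days 2 and 3 alone gave 0.21 for Hex-A, -0.03 for Gapdh1 and -0.06 for Pgk. Leaving out single arrays spanned -0.47 to 0.41 for Hex-A, -0.28 to 0.22 for Pgi, -0.04 to 0.25 for Ald1, -0.09 to 0.21 for Gapdh1, -0.27 to 0.24 for Pgk, -0.47 to 0.05 for Eno and 0.01 to 0.36 for Pfk. On centered arrays, leaving out LARK overexpression array 3 or control array 2 turned Hex-A to -0.17, and the others left it positive (0.07 and 0.28 without LARK overexpression arrays 1 and 2, 0.29 and 0.05 without control arrays 1 and 3). The same 2 arrays turned Eno, to 0.09 and 0.03. Pgi stayed positive as with centering alone (0.06, 0.13 and 0.16 without LARK overexpression arrays 1, 2 and 3, and 0.10, 0.09 and 0.16 without control arrays 1, 2 and 3). Of bordering probe sets 0 were called in the comparison as reported, 1 with centering, quantile normalization, 16 added, a filter above 100, or a trend and robust prior, 4 with the replicate block and that prior, and 0 to 2 with an array left out (2 without LARK overexpression array 1). The cause of these changes was not tested. Calls over all probe sets numbered 146 as reported, 0 with the block and 571 with the block and that prior.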

Other observations

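Citrate cycle genes outside the naming rule, chosen after their values were seen, had some of the larger positive differences near glycolysis. The isocitrate dehydrogenase subunit gene l(1)G0156 read 2088, 1143 and 1616 with LARK overexpression and 1325, 670 and 843 in the control. It was higher on 3 of 3 days, a difference of 0.79 ± 0.47 log2 units (SE; limma adjusted p = 0.667). The succinate dehydrogenase subunit gene SdhB read 1665, 776 and 863 with LARK overexpression and 917, 544 and 600 in the control, a difference of 0.63 ± 0.47 log2 units (SE; limma adjusted p = 0.849), likewise higher on 3 of 3 days. Its partner SdhC had a log2 difference of 0.42 (SE 0.47) with log2 ratios of 0.37, 0.44 and 0.45 on days 1, 2 and 3. Under the replicate block with a robust signal-dependent prior, the limma adjusted p was 0.0230 for l(1)G0156, 0.0471 for SdhB and 0.120 for SdhC, so the first and second of these were called higher in a fit that called 6.05% of all probe sets tested. The replicate block alone called 0 probe sets.

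Also chosen after their values were seen were sug and Glut1. The transcription factor gene sug, a repressor linked to sugar responses, read 264, 67.2 and 58.1 with LARK overexpression and 283, 202 and 158 in the control. Its log2 ratio was -0.10 on day 1 and -1.59 and -1.44 on days 2 and 3, and the log2 difference was -1.05 (SE 0.56; limma adjusted p = 0.581). Of the 2 probe sets of the glucose transporter gene Glut1, 1 had a log2 difference of -0.86 (SE 0.50) and the other -0.16 (SE 0.47). As deposited, both were lower on 3 of 3 days, against 26.9% of all probe sets. On centered arrays the set at -0.16 was lower on 2 of 3 days, with a log2 ratio of 0.09 on day 3.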
